A study of Mus musculus with 18 samples.

Results

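Whole epididymal white adipose tissue of let-7e offspring was compared with that of negative-control offspring across all genes, in the libraries whose identifiers begin with the letter A in the deposited count table. These are 9 of the 18 samples the labels describe: 4 let-7e libraries (replicates 3, 4, 5 and 6) and 5 control libraries (replicates 1, 2, 3, 4 and 6). No library with a purely numbered identifier was used, and the choice of libraries used no measured value. By the labels the mice were wild-type C57BL/6 males labelled generation Fm, descended from zygotes that had received a microinjection of either let-7 microRNA (treatment label IVF_Let7e for the let-7e group) or of a negative control (IVF_NegativeControl). Every group was weaned onto chow, was switched at week 6 to a diet named LFD and stayed on it until week 15, whereas the age label reads 24 weeks for every sample. The libraries, each from 1 ug of RNA isolated with TRI reagent, were sequenced on an Illumina NovaSeq. The labels do not say that each library came from a different mouse or which mice shared a sire, so the p-values measure the spread between these libraries, which may be technical in part. The title of the series places the comparison in the inheritance of a metabolic decline linked to let-7 and mitochondria.

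let-7 is a family of microRNAs, small RNAs loaded into Argonaute proteins that pair through their seed with matching sites, mostly in the 3 prime untranslated region (UTR) of messenger RNAs, and lower translation or stability of those messages. The family is known for holding back growth genes such as Lin28, Hmga2 and the insulin and IGF receptor pathway, and in fat and liver for its link to insulin sensitivity. The RNA sequenced here is that of the adult offspring's fat, not of the injected zygote, and mature microRNA levels were not analysed here.

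The injected microRNAs are shown to make the matches counted further on readable. RefSeq on GRCm38.p6 gives these mature sequences, written 5′ to 3′ with the seed, bases 2 to 8, in capitals. Both carry the same seed, so the seed matches do not tell let-7e from let-7d.
mmu-let-7e-5p: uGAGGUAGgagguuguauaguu
mmu-let-7d-5p: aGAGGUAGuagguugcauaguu

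The sites below were taken from GENCODE M21 transcripts (GRCm38), for genes of the insulin pathway and the extracellular matrix and for Igdcc3, a membrane protein. The values of these genes are described below. The capitals mark the 8-base match, the reverse complement of the seed followed by an A.
Insr (chr8:3153198-3153219, minus strand): cttctcagtacagtCTACCTCA
Igf1r (chr7:68229111-68229132, plus strand): tttcaaacatttatCTACCTCA
Irs2 (chr8:10986528-10986549, minus strand): aaactaccacagtcCTACCTCA
Col3a1 (chr1:45349136-45349157, plus strand): cctccctatgttaaCTACCTCA
Igdcc3 (chr9:65185708-65185729, plus strand): gtgactctcagcacCTACCTCA

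Total counts ran from 15324887 to 28523424 per library, so that for most genes named here, whose levels are given as CPM (counts scaled to library size with TMM), counting error was small beside the spread between libraries. Control 3 and control 6 stood apart. The root mean square difference in log2 CPM between 2 libraries was at least 0.99 wherever either of them was involved, and the first 2 principal components (33.4% and 28.5% of the variance) separated them from the rest. Control 3 held transcripts of smooth muscle and of the vas deferens or epididymis, which the measured genes do not tell apart. Crisp1, a secreted epididymal protein, was at 2873 CPM and Cnn1, a smooth muscle calponin, at 1611 CPM. Control 6 held spermatid transcripts, with Smcp, a sperm mitochondrial protein, at 157 CPM. In the other 3 controls Crisp1 was at most 0.703, Cnn1 at most 8.17 and Smcp at most 0.561 CPM, whereas let-7e 3 had 19.5 CPM of Crisp1. Over whole marker lists, the vas deferens and epididymis list (4 of 13 genes measured) had a mean log2 CPM of 10.21 in control 3 and of -3.36 to 3.31 in the other 8 libraries, the smooth muscle list (15 of 15) 8.80 in control 3 and 4.79 to 5.64 elsewhere, and the spermatid list (13 of 13) 6.73 in control 6 and -0.91 to 1.34 elsewhere. The fat cell markers Adipoq, which encodes adiponectin, and Lep, which encodes leptin, were abundant in every library, so fat was present in all of them. The comparison is therefore given with all 9 libraries, and where it matters also without control 3 and control 6. In whole tissue, fewer cells of a type and less RNA per cell cannot be told apart.

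**Figure D1:**
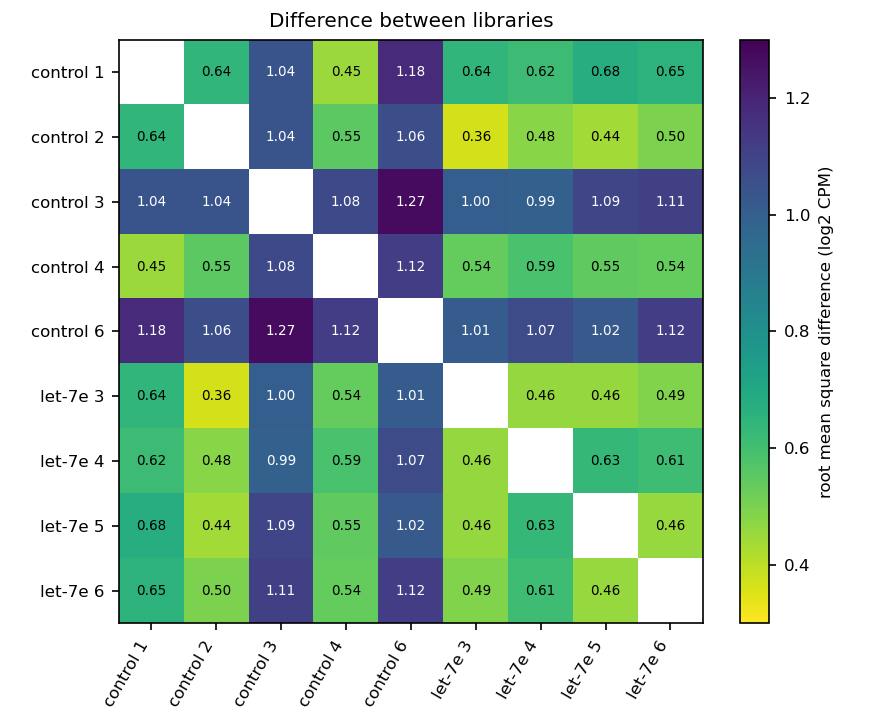
Root mean square difference in log2 CPM between each pair of the 9 libraries (colour and printed value). Control 3 and control 6 differ from every other library by 0.99 or more, and the closest pair, at 0.365, is control 2 and let-7e 3.

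Among the other controls, the let-7e libraries lay nearest to control 2, from which they differed by 0.365 to 0.499. From controls 1 and 4 they differed by 0.537 to 0.675, and those 2 controls differed from each other by 0.45. The most similar pair of libraries was control 2 and let-7e 3, at 0.365, closer than any pair of let-7e libraries (0.455 to 0.634). Over the 14352 genes with enough counts for the purpose, the median SD of log2 CPM was 0.288 in the controls and 0.185 in let-7e, and 73.2% of genes were more variable in the controls. Without control 3 and control 6 the medians were 0.198 and 0.185, with 52.3% of genes more variable in the controls.

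No single gene passed the test between let-7e and control. The quasi-likelihood test of edgeR, adjusted by the Benjamini-Hochberg method, called 0 of 15721 genes (0%) at 0.05, and the smallest adjusted p was 0.783. At an unadjusted p under 0.05 there were 734 genes (4.67%), of which 212 had higher values in let-7e (1.35%) and 522 lower values (3.32%). limma-voom with quality weights also called 0 genes, with 1593 at an unadjusted p under 0.05, and the DESeq2 Wald test called 4 of the 15152 genes to which it gave an adjusted p (0.0264%). Of all tested genes, 41% had a log2 fold change above 0 and the median was -0.04, so that slight negative values were the rule with all 9 libraries. Without control 3 and control 6, 49% were above 0 and the median was -0.005. The shares over all genes set beside the lists below are those of all 9 libraries. All 4 let-7e libraries lay above all 5 controls for 102 genes (0.649%) and below them for 97 genes (0.617%), together 199 genes (1.27%).

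**Figure D2:**
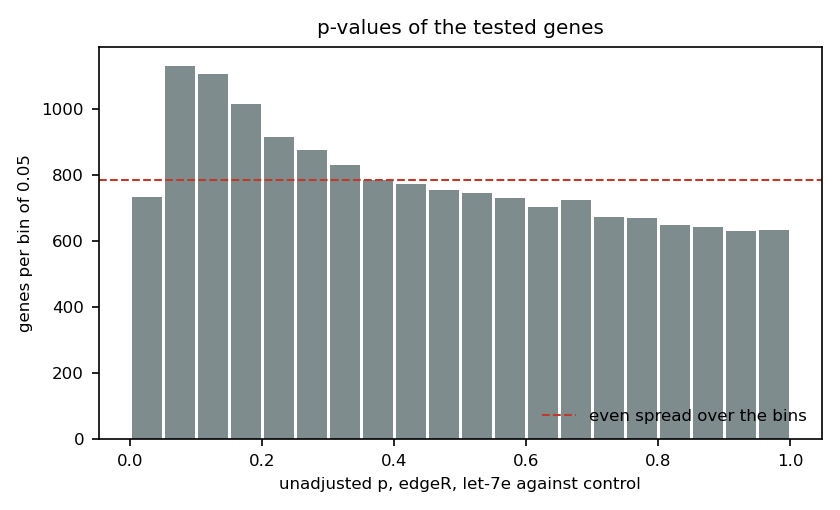
Number of genes by unadjusted edgeR p for let-7e against control, in 20 bins of 0.05 over 15721 genes; the dashed line is an even spread of 786 genes per bin. The lowest bin holds 734 genes, fewer than the 1131 genes of the next bin.

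The genes with the smallest p among those with higher values in let-7e included matrix, chemokine and Wnt pathway genes, and in all 8 of them the groups were apart. They were picked by p from these same values, so groups that lie apart largely follow from the choice. The same holds for the 8 lower genes below. In what follows, values are CPM in the order control 1, 2, 3, 4 and 6, then let-7e 3, 4, 5 and 6. Tnc, which encodes the matrix glycoprotein tenascin-C (chromosome 4, 63959785 to 64047015, minus strand, GRCm38), had 16.9, 12.3, 11.8, 10.5 and 8.56 in the controls and 19.7, 22.3, 18.1 and 24.9 in let-7e. Every let-7e library was above control 1, the highest control, and the log2 fold change was 0.80 (SE 0.19, edgeR adjusted p = 0.783). Cxcl9, a chemokine induced by interferon gamma that attracts T cells (chromosome 5, 92321347 to 92328079, minus strand), had 38.7, 32.99, 22.8, 34.02 and 27.4 in the controls and 52.8, 52.6, 41.4 and 47.04 in let-7e. Control 3 was the lowest and let-7e 5 the lowest of its group, still above control 1, and the log2 fold change was 0.62 (SE 0.15, edgeR adjusted p = 0.783). Axin2, both a target and an inhibitor of Wnt signalling (chromosome 11, 108920349 to 108950783, plus strand), had 14.6, 15.2, 9.95, 10.5 and 14.5 in the controls and 17.2, 21.1, 20.1 and 29.6 in let-7e. Its highest value was that of let-7e 6, and the log2 fold change was 0.74 (SE 0.19, edgeR adjusted p = 0.783).

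The remaining 5 had smaller differences. Ctif, a translation initiation factor for messages bound by the nuclear cap-binding complex, had 67.2, 77.7, 60.9, 83.2 and 81.03 in the controls and 100.9, 97.7, 87.4 and 130.3 in let-7e, a log2 fold change of 0.47 (SE 0.14). Cdc42ep2, an effector of the GTPase Cdc42, had 17.7, 30.4, 19.8, 25.8 and 26.1 in the controls and 33.2, 31.7, 39.3 and 38.5 in let-7e, a log2 fold change of 0.56 (SE 0.16). Tlnrd1, a protein with a talin rod domain, differed by 0.30, the chromatin remodelling subunit gene Bicra by 0.27 and Mfsd4a, of the major facilitator transporters, by 0.42. In Bicra the groups were narrow, with 17.8, 19.8, 19.7, 18.1 and 17.8 in the controls and 23.6, 21.6, 23.8 and 22.1 in let-7e, so that a small difference still kept them apart. For these 5 genes the edgeR adjusted p was also 0.783.

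**Figure D3:**
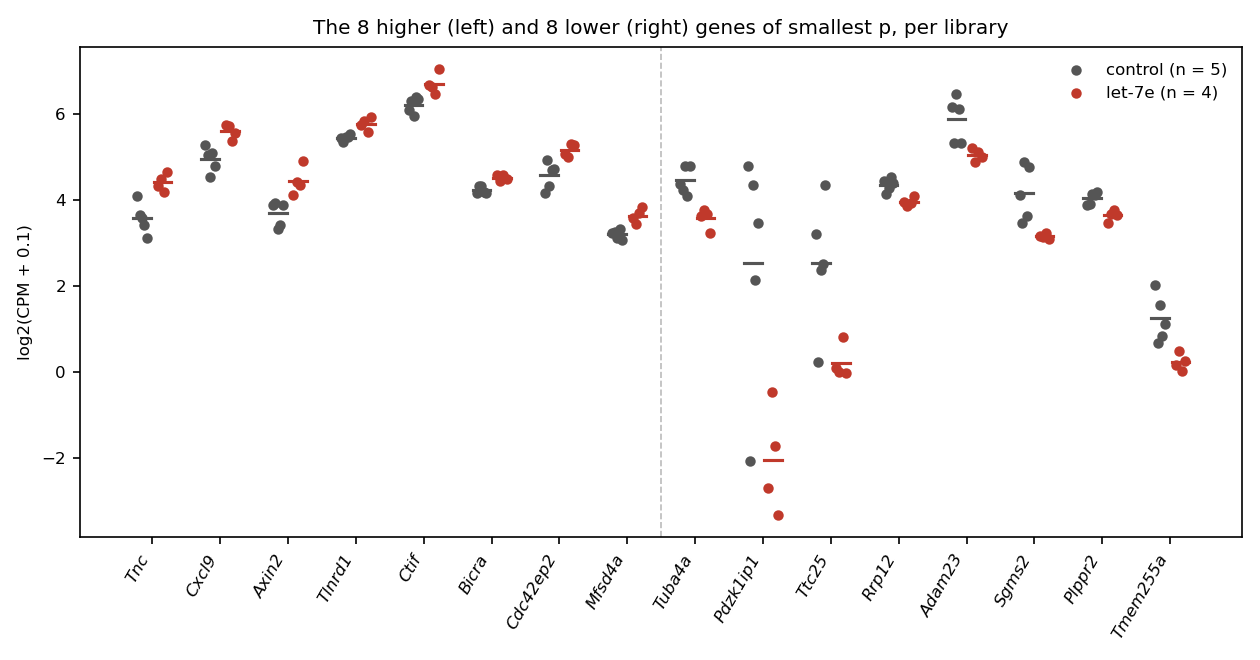
log2(CPM + 0.1) of the 16 genes with the smallest unadjusted p, with each library as a point (grey: 5 controls, red: 4 let-7e) and group means as lines. The groups are apart for all 8 genes on the left and for 6 of the 8 on the right, and overlap in Pdzk1ip1 and Ttc25. The genes were picked by p from these same values.

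Among genes with lower values in let-7e, Tuba4a had the smallest p. Tuba4a encodes an alpha tubulin (chromosome 1, 75214228 to 75219865, minus strand) and had 20.5, 18.5, 27.3, 16.9 and 27.6 CPM in the controls against 12.3, 13.4, 12.6 and 9.23 in let-7e. Control 3 and control 6 were the highest, but the other 3 controls were also above every let-7e library. The log2 fold change was -0.92 (SE 0.19, edgeR adjusted p = 0.783), and -0.67 without control 3 and control 6. Adam23, a membrane protein of the ADAM family (chromosome 1, 63445891 to 63596276, plus strand), had 71.1, 39.96, 87.02, 68.9 and 39.5 in the controls and 36.4, 29.03, 34.2 and 31.8 in let-7e, a log2 fold change of -0.91 (SE 0.24). Control 2 and control 6 lay just above the highest let-7e library. Sgms2, a sphingomyelin synthase (chromosome 3, 131318985 to 131491411, minus strand), had 17.1, 10.9, 29.1, 12.2 and 26.8 in the controls and a narrow 8.78, 8.698, 9.21 and 8.35 in let-7e, a log2 fold change of -1.15 (SE 0.30). Its highest values were in control 3 and control 6, and without them the log2 fold change was -0.63.

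Rrp12, a ribosome assembly factor, had 21.4, 17.4, 19.1, 22.8 and 20.9 in the controls and 15.3, 14.4, 15.1 and 16.9 in let-7e, a log2 fold change of -0.42 (SE 0.11). The groups were apart, by the small gap between control 2 and let-7e 6. Plppr2, related to the phospholipid phosphatases, differed by -0.42 and Tmem255a, a transmembrane protein, by -1.18, with the groups apart in both. The edgeR adjusted p was 0.783 for these genes as for the 3 before them.

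Pdzk1ip1 and Ttc25 had far larger fold changes from scattered control values. Pdzk1ip1, a small membrane protein of epithelia, had 27.6, 0.1404, 20.2, 4.29 and 10.9 in the controls and 0.0535, 0.621, 0.206 and 0 in let-7e, and control 2 lay among the let-7e libraries. Ttc25, a part of the docking complex of ciliary dynein, had 9.17, 1.08, 5.104, 5.55 and 20.2 in the controls and 0.963, 0.904, 1.65 and 0.882 in let-7e, and again control 2 overlapped with let-7e. The edgeR log2 fold changes were -5.80 (SE 1.40) and -2.91 (SE 0.73), with an adjusted p of 0.783 for each. DESeq2 called both at an adjusted p of 0.0459, as it did Tuba4a, at a log2 fold change of -0.91. Its remaining call, at an adjusted p of 0.0295, was Iglv1, an immunoglobulin lambda variable segment with 2.98, 0.468, 0.7198, 1.26 and 14.5 CPM in the controls and 0.214, 0.113, 0.124 and 0.0679 in let-7e. Control 6, which had the highest Iglv1, also had the highest level of the lymphocyte list. Part of the Iglv1 reads could belong to its close copies among the segments.

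Without control 3 and control 6, edgeR and limma-voom again called 0 genes, with 1001 and 2917 at an unadjusted p under 0.05. DESeq2 then called 15 of the 15031 genes with an adjusted p (0.0998%), 3 with higher and 12 with lower values in let-7e. The lower genes included Hfe2, which encodes the BMP co-receptor hemojuvelin, and Tfr2, which encodes transferrin receptor 2, both regulators of iron balance. Hfe2 had 9.61, 1.73, 0.327, 3.09 and 1.02 in the controls and 0.375, 0.791, 0.537 and 0.407 in let-7e, and DESeq2 gave a log2 fold change of -3.19 (adjusted p = 0.00244) over the 7 libraries. Control 3, which was left out, had the lowest Hfe2 of all 9. Tfr2 had 11.6, 6.36, 7.59, 13.1 and 4.65 in the controls and 5.298, 3.44, 4.13 and 1.901 in let-7e, and DESeq2 gave -1.48 (adjusted p = 0.0498). Egln3, a prolyl hydroxylase that acts on the hypoxia-inducible factors, had 18.8, 6.04, 17.1, 8.65 and 3.17 in the controls and 3.42, 3.84, 3.72 and 4.62 in let-7e, with -1.52 by DESeq2 (adjusted p = 0.0498). Ptges, the inducible prostaglandin E synthase, had 130.2, 102, 544, 119 and 50.1 in the controls and 63.5, 50.4, 80.01 and 66.6 in let-7e, with -0.85 by DESeq2 (adjusted p = 0.00769). Control 6, also left out, had the lowest Egln3 and the lowest Ptges of all 9. With all 9 libraries, DESeq2 gave adjusted p of 0.542 for Hfe2, 0.529 for Tfr2, 0.564 for Egln3 and 0.639 for Ptges. The edgeR adjusted p was 0.783 for each of them.

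The 3 genes with higher values in that fit were Dusp10, Trpv2 and Cep170. Dusp10, a phosphatase of the stress kinases, had 9.44, 14.3, 13.6, 13.2 and 30.8 in the controls and 19.9, 26.7, 23.9 and 29.8 in let-7e, with 1.02 by DESeq2 (adjusted p = 0.00708). Trpv2, a cation channel, had 15.3, 24.6, 35.2, 14.2 and 72.9 in the controls and 62.9, 27.5, 51.5 and 43.3 in let-7e, with 1.35 by DESeq2 (adjusted p = 0.017). Cep170, a centrosomal protein, had 19.9, 24.1, 17.2, 20.9 and 44.03 in the controls and 34.2, 30.2, 38.2 and 39.9 in let-7e, with 0.71 by DESeq2 (adjusted p = 0.00769). In all 3 genes control 6 had the highest value of the 9 libraries and overlapped with let-7e. With all 9 libraries, edgeR gave log2 fold changes of 0.60, 0.48 and 0.47, at adjusted p of 0.783, 0.828 and 0.783. These genes were named after their values were seen.

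Fatty acid synthesis genes had lower values in let-7e, with controls 1 and 4 the highest libraries in most of them. Of the 24 genes of the list, 22 had a log2 fold change below 0, against 59% of all genes, with a median of -0.79. By edgeR, 2 were at an unadjusted p under 0.05, both lower, against 3.32% of all genes, and none was called. Fasn, the fatty acid synthase, had 32280, 5675, 6749, 20080 and 2942 CPM in the controls and 4967, 4236, 9871 and 7044 in let-7e. Control 1 and control 4 were well above all 7 other libraries, while control 6 was below every let-7e library, so the groups overlapped (log2 fold change -1.07, SE 0.67, edgeR adjusted p = 0.783). Elovl6, which lengthens the products of Fasn, had the same pair of controls highest, with 681, 55.6, 96.8, 339 and 20.9 in the controls and 31.5, 29.6, 84.9 and 32.2 in let-7e (log2 fold change -2.43, SE 0.94, edgeR adjusted p = 0.783). Acaca, the acetyl-CoA carboxylase that feeds Fasn, had 1742, 304, 378, 1069 and 279.7 in the controls and 267, 364, 374 and 370.4 in let-7e, and Scd1, the delta-9 desaturase, 97640, 42390, 37740, 74030 and 37760 in the controls and 36250, 37250, 38280 and 57630 in let-7e. Fads2, the delta-6 desaturase, departed from them, since its 786 CPM in control 3 compared with 19.96 to 72.07 in the other 8 libraries. On the list's mean log2 CPM, relative to the mean of the controls, the controls were at 1.20, -0.47, -0.14, 0.59 and -1.18 and the let-7e libraries at -0.66, -0.61, -0.25 and -0.36. The 4 let-7e libraries thus lay within the range of the controls. Without control 1 the median log2 fold change of the list was -0.17, that of Fasn -0.45 and that of Elovl6 -1.53.

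Cholesterol synthesis genes had a log2 fold change below 0 in 23 of 24 members, against 59% of all genes, with a median of -0.46. At an unadjusted p under 0.05 by edgeR were 4 of them, all lower, against 3.32% of all genes, and none was called. Cyp51, which demethylates lanosterol, had 238, 38.04, 84.6, 63.8 and 30.9 CPM in the controls and 33.6, 37.9, 42.1 and 32.4 in let-7e, with control 1 far above the rest and control 6 the lowest (log2 fold change -1.33, SE 0.56, edgeR adjusted p = 0.783). Fdft1, squalene synthase, had 71.5, 57.3, 85.98, 61.6 and 86.9 in the controls and 49.2, 51.5, 52.4 and 70.1 in let-7e, where only let-7e 6 reached into the controls. Without control 1 the median of the list was -0.27 and the value of Cyp51 -0.59.

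General fat cell genes showed no such offset. Of 23 adipocyte markers 15 had a log2 fold change above 0, against 41% of all genes, and the median of 0.13 became -0.07 without control 3 and control 6. Adipoq had 3510, 3189, 2032, 4086 and 3267 CPM in the controls and 3458, 4384, 2714 and 4100 in let-7e, with control 3 the lowest (log2 fold change 0.17, SE 0.23, edgeR adjusted p = 0.875). Lep was the more variable hormone, with 239, 2022, 333, 620.2 and 766 in the controls and 1365, 492, 1756 and 1547 in let-7e (log2 fold change 0.68, SE 0.61, edgeR adjusted p = 0.814). The highest Lep was in control 2 and the lowest in control 1, and let-7e 4 lay among the lower controls. Without control 2 the Lep value was 1.37, and without control 1 it was 0.45. For Adipoq, leaving out control 3 gave 0.04. Pparg, the master regulator of fat cell differentiation, and Cebpa, its partner, differed by 0.11 and 0.05, and both values turned negative without control 3. Cidea, a lipid droplet protein, had its highest value in control 1, as had Fasn and Elovl6, with 37.4, 6.97, 10.7, 11.7 and 2.66 in the controls and 3.75, 3.22, 4.17 and 8.35 in let-7e (log2 fold change -1.53, SE 0.68, edgeR adjusted p = 0.783). Without control 1 the Cidea value was -0.73. Adrb3, the beta-3 adrenergic receptor that starts lipolysis, had 1034, 973, 700.5, 1134 and 919.2 in the controls and 1315, 1493, 998 and 1078 in let-7e, a log2 fold change of 0.34 (SE 0.18). G0s2, an inhibitor of the fat lipase Pnpla2, had 215, 158, 142, 172 and 174 in the controls and 228, 172, 292 and 298 in let-7e, where only let-7e 4 fell within the controls (log2 fold change 0.50, SE 0.18, edgeR adjusted p = 0.783).

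In the insulin pathway, 15 of 23 genes had a log2 fold change above 0, against 41% of all genes, and the median was 0.05. Higher at an unadjusted p under 0.05 was 1 gene, against 1.35% of all genes. That gene was Grb14, an inhibitor of the insulin receptor, with 5.798, 32.2, 21.8, 18.1 and 20.6 CPM in the controls and 51.9, 26.1, 34.6 and 38.1 in let-7e (log2 fold change 0.92, SE 0.39, edgeR adjusted p = 0.783). Control 1 was by far the lowest, and let-7e 4 lay below control 2. Irs2, a docking protein of the insulin receptor, had 117, 87.6, 84.2, 102 and 146 in the controls and 132, 128, 161 and 136 in let-7e, a log2 fold change of 0.35 (SE 0.17, edgeR adjusted p = 0.783). Only control 6 overlapped with let-7e for Irs2. Slc2a4, the insulin-responsive glucose transporter, had 354, 224, 242, 430.2 and 191 in the controls and 213, 173, 276 and 249 in let-7e, and its highest values were those of controls 1 and 4 (log2 fold change -0.36, SE 0.25, edgeR adjusted p = 0.783). Without control 4 that value was -0.15.

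**Figure D4:**
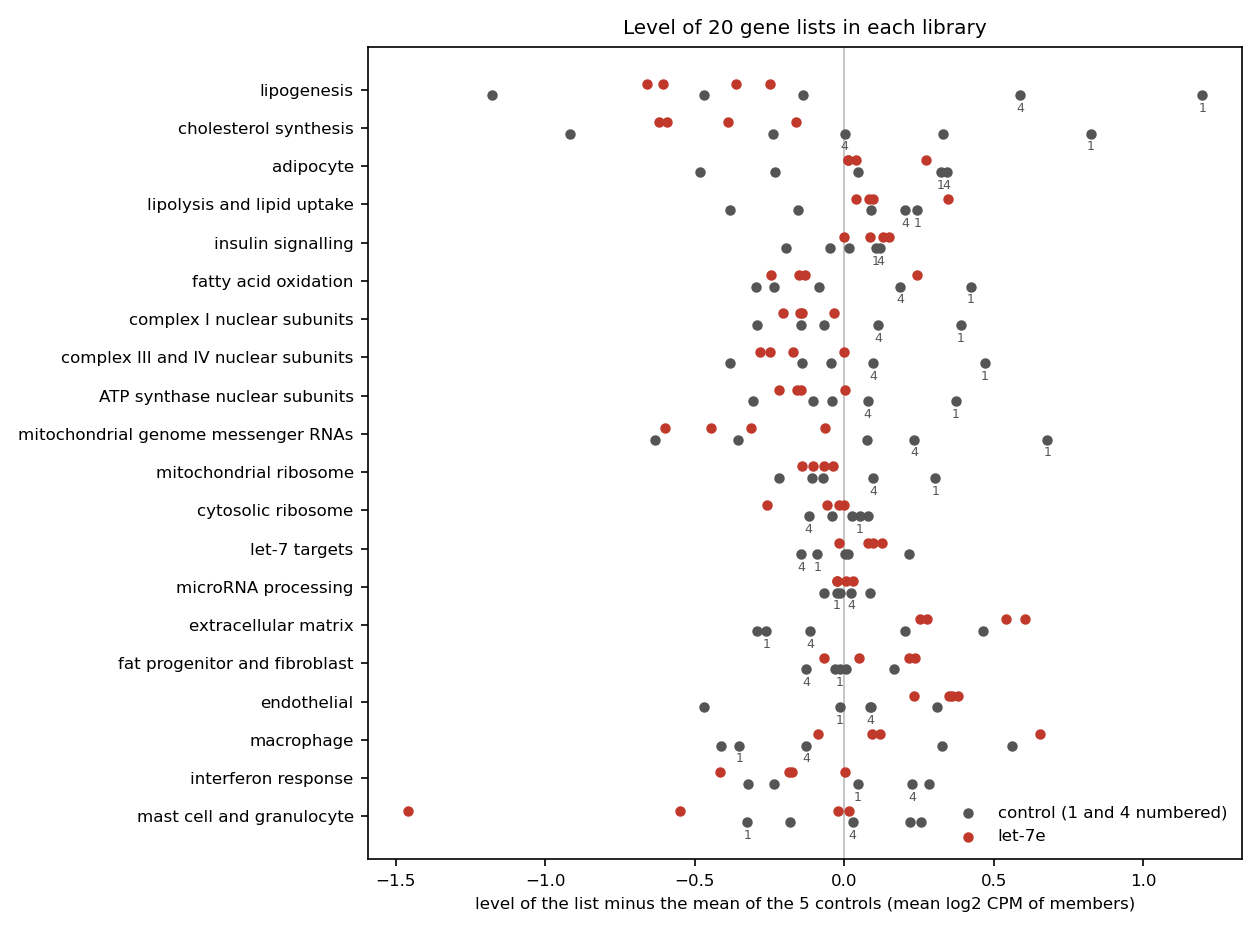
Mean log2 CPM of the tested members of 20 gene lists in each library, minus the mean of the 5 controls (grey: controls, red: let-7e, with controls 1 and 4 numbered). The groups overlap in every list, and control 1 is the highest library in lipogenesis, cholesterol synthesis and the respiratory chain lists.

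Messages of the respiratory chain were slightly lower in let-7e in all members measured, by amounts that were small beside the spread of the controls. All 36 nuclear subunits of complex I had a log2 fold change below 0 (median -0.17), as had all 21 of complexes III and IV (median -0.19) and all 14 measured of ATP synthase (median -0.13), against 59% of all genes. At an unadjusted p under 0.05 by edgeR were 1, 0 and 1 of them, against 3.32% of all genes with lower values, and none was called. The messages of these complexes share libraries and normalization and vary together, so their common sign is not independent from gene to gene. For complex I the level relative to the control mean was 0.39, -0.14, -0.07, 0.11 and -0.29 in the controls and -0.21, -0.15, -0.14 and -0.03 in let-7e. The high control values were again those of controls 1 and 4, and control 6 was below all 4 let-7e libraries. Without control 1 the medians were -0.05, -0.05 and -0.03, and without control 3 and control 6 they were -0.28, -0.34 and -0.26.

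Among single members, Ndufa5, a subunit of complex I, had 82.9, 48.3, 60.5, 56.02 and 48.7 CPM in the controls and 46.9, 51.6, 41.9 and 41.8 in let-7e (log2 fold change -0.40, SE 0.16, edgeR adjusted p = 0.783). Ndufs1, the largest subunit of complex I, had 199, 124, 132, 179 and 106 in the controls and 112, 119.6, 131 and 149.8 in let-7e. Cox7c, of cytochrome c oxidase, had 100.1, 52.9, 49.6, 49.8 and 38.8 in the controls and 38.96, 41.5, 42.1 and 42.1 in let-7e, with control 1 well above the rest and control 6 the lowest. Atp5g1, which encodes subunit c of ATP synthase, was the member of the 3 lists with groups apart, at 35.4, 27.6, 59.4, 28.3 and 26.6 in the controls and 25.9, 25.4, 26.1 and 22.2 in let-7e, but only by the gap between control 6 and let-7e 5 (log2 fold change -0.53, SE 0.23, edgeR adjusted p = 0.783). Without control 3, the highest library, the Atp5g1 value was -0.265, and without control 1 that of Ndufa5 was -0.245. Atp5g2 and Atp5g3 encode the same subunit from other genes.

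The messages made from the mitochondrial genome had the same pattern. All 8 measured of the 13 had a log2 fold change below 0, against 59% of all genes, with a median of -0.23. None was at an unadjusted p under 0.05 by edgeR, and the median was -0.0045 without control 1. mt-Co1, which encodes a core subunit of cytochrome c oxidase, had 22350, 10380, 13890, 17050 and 9135 CPM in the controls and 10070, 11280, 12350 and 17570 in let-7e (log2 fold change -0.20, SE 0.31, edgeR adjusted p = 0.8897). Its log2 fold change was 0.01 without control 1. Proteins of the mitochondrial ribosome had log2 fold changes below 0 in 39 of 42 genes (median -0.12), with Mrpl1 at -0.32 and Mrpl22, whose groups were apart, at -0.31. Without control 1 the median of that list was -0.02. Fatty acid oxidation genes were below 0 in 18 of 22 (median -0.08), but the median was 0.04 without control 1. Ehhadh, the peroxisomal bifunctional enzyme, had 146, 65.7, 87.7, 88.7 and 65.7 in the controls and 46.1, 57.7, 52.2 and 82.3 in let-7e (log2 fold change -0.62, SE 0.26, edgeR adjusted p = 0.783, and -0.39 without control 1).

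The regulators of mitochondrial mass were mixed. Ppargc1a, the coactivator of mitochondrial biogenesis, had 4.03, 3.84, 2.81, 1.97 and 3.52 CPM in the controls and 2.52, 4.91, 3.76 and 5.702 in let-7e (log2 fold change 0.36, SE 0.30, edgeR adjusted p = 0.799). Tfam, which packages and transcribes mitochondrial DNA, had 29.2, 25.03, 28.9, 25.9 and 33.7 in the controls and 23.98, 27.5, 26.1 and 26.1 in let-7e (log2 fold change -0.16, SE 0.11, edgeR adjusted p = 0.783). Mfn1, an outer membrane fusion protein, had 56, 50.2, 59.4, 56.6 and 52.98 in the controls and 45.8, 46.5, 48.1 and 52.7 in let-7e, where let-7e 6 alone reached into the controls (log2 fold change -0.21, SE 0.07, edgeR adjusted p = 0.783). Over the 23 genes of biogenesis and dynamics, 17 were below 0, against 59% of all genes, with a median of -0.07.

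Extracellular matrix genes had higher values in let-7e in 33 of 35 members, against 41% of all genes, with a median log2 fold change of 0.36. At an unadjusted p under 0.05 by edgeR were 7 of them, all higher, against 1.35% of all genes, and none was called. Eln, which encodes elastin, had 145, 176, 109.6, 155 and 201 CPM in the controls and 256, 249, 171 and 299.9 in let-7e (log2 fold change 0.61, SE 0.20, edgeR adjusted p = 0.783). Control 2 and control 6 were above let-7e 5, and the other 3 let-7e libraries were above every control. Col3a1, a fibrillar collagen chain, had 970.1, 1269, 916, 872 and 951 in the controls and 1556, 1286, 1099 and 1885 in let-7e, where only let-7e 5 was below control 2 (log2 fold change 0.53, SE 0.18, edgeR adjusted p = 0.783). Lamc1, a laminin chain of basement membranes, had 276, 333, 267, 291 and 280.4 in the controls and 362, 312, 339.7 and 418 in let-7e (log2 fold change 0.29, SE 0.11, edgeR adjusted p = 0.783). The list's level relative to the control mean was -0.26, 0.47, -0.29, -0.11 and 0.20 in the controls and 0.54, 0.28, 0.25 and 0.60 in let-7e. All 4 let-7e libraries were above 4 of the 5 controls, and control 2 was above 2 of them. The median stayed between 0.29 and 0.47 with any single library left out and was 0.34 without control 3 and control 6. Markers of fat progenitors and fibroblasts, the cells that make much of this matrix, were higher in 12 of 21, with a median of 0.08. Zeb2, a transcription factor of mesenchymal cells, had the smallest p among them, with 91.95, 119, 67.8, 83.1 and 96.2 in the controls and 139.7, 104, 145 and 152 in let-7e (log2 fold change 0.54, SE 0.17, edgeR adjusted p = 0.783).

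Endothelial markers had higher values in 19 of 20 members, against 41% of all genes, with a median of 0.28. At an unadjusted p under 0.05 by edgeR were 3 of them, all higher, against 1.35% of all genes, and none was called. Cldn5, a tight junction protein of vessels, had 213, 278, 169, 204 and 268 CPM in the controls and 302, 359, 268 and 322 in let-7e (log2 fold change 0.45, SE 0.16, edgeR adjusted p = 0.783). Cdh5, the cadherin of endothelial junctions, had 301, 412, 227, 326 and 308 in the controls and 376, 413, 443 and 497 in let-7e. Kdr, the main VEGF receptor, had 174, 169.7, 109, 200 and 201 in the controls and 206, 245, 241 and 219.9 in let-7e, with the groups apart and control 3 far below the rest (log2 fold change 0.40, SE 0.17, edgeR adjusted p = 0.783). Control 3 had the lowest level of the endothelial list, and without control 3 and control 6 the median was 0.19. Lymphatic endothelial markers were mixed, with 4 of 6 above 0 and a median of 0.18 that was 0.04 without control 4 and 0.05 without let-7e 4. Higher at an unadjusted p under 0.05 was 1 of them, against 1.35% of all genes. That gene was Flt4, the VEGF receptor of lymphatic vessels, whose groups were apart, with 25.8, 26.9, 15.6, 20.7 and 24.7 in the controls and 28.9, 32.1, 29.9 and 34.8 in let-7e (log2 fold change 0.45, SE 0.16, edgeR adjusted p = 0.783). The part of control 3's smooth muscle and vas deferens or epididymis transcripts in these differences was not tested beyond leaving that library out.

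Immune lists did not separate the groups, and their medians moved with single libraries. Macrophage markers were higher in 18 of 23, against 41% of all genes, with a median of 0.16 and none at an unadjusted p under 0.05 by edgeR. Cd68, a lysosomal macrophage protein, had 16.1, 32.5, 14.1, 21.6 and 36.6 CPM in the controls and 48.4, 29.3, 26.8 and 34.01 in let-7e. The macrophage median was 0.03 without let-7e 3 and 0.34 without control 6. Lymphocyte markers were lower in 20 of the 25 tested, against 59% of all genes, with a median of -0.27. That median was -0.06 without control 6, -0.01 without let-7e 6 and -0.55 without let-7e 4. Jchain, which joins antibody units in plasma cells, had 9.06, 1.78, 8.899, 3.65 and 27.9 in the controls and 3.96, 1.24, 0.578 and 0.339 in let-7e, with the highest value in control 6 (log2 fold change -2.77, SE 0.94, edgeR adjusted p = 0.783). Interferon response genes were lower in 21 of 25, against 59% of all genes, with 2 lower at an unadjusted p under 0.05, against 3.32%. The median of the list was -0.21. That median was -0.12 without control 3, without control 4 or without let-7e 6. Irf7, a transcription factor of the type I interferon response, had 40.98, 25.3, 64.2, 52.2 and 32.7 in the controls and 29.9, 31.3, 26.2 and 29.3 in let-7e, a narrow let-7e group within the lower part of the controls (log2 fold change -0.58, SE 0.24, edgeR adjusted p = 0.783). Cxcl9, described above, is also an interferon-induced gene and had the opposite sign. Cpa3, a mast cell protease, had 4.42, 3.04, 4.74, 4.71 and 4.42 in the controls and 3.37, 4.74, 0.95 and 1.97 in let-7e, with let-7e 5 the lowest library.

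Proliferation genes were scattered, with 17 of 26 above 0, against 41% of all genes. Their median was 0.12, which was 0.01 without let-7e 5 and 0.38 without control 6. Mki67, the Ki-67 proliferation marker, had 5.08, 6.22, 5.17, 6.47 and 7.81 CPM in the controls and 13.8, 5.48, 14.4 and 11.4 in let-7e (log2 fold change 0.85, SE 0.28, edgeR adjusted p = 0.783). In 3 let-7e libraries Mki67 was above every control, whereas let-7e 4 lay among the controls. Cytosolic ribosomal proteins were lower in 73 of 77 genes, against 59% of all genes, with a small median of -0.09, or -0.01 without let-7e 6. Lower at an unadjusted p under 0.05 were 3 of them, against 3.32% of all genes. Rps13, of the small subunit, had 83.2, 79.7, 74.7, 63.2 and 74.7 in the controls and 66.04, 65.01, 62.7 and 52.3 in let-7e (log2 fold change -0.31, SE 0.10, edgeR adjusted p = 0.783). Many of these genes have processed copies in the genome, so the split of their reads is uncertain.

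Genes known as let-7 targets lay on both sides of 0. Of the 55 in the list 47 were measured and 46 tested, of which 25 had a log2 fold change below 0 and 21 above it, with a median of -0.03, beside -0.04 over all genes. At an unadjusted p under 0.05 by edgeR were 3 higher, against 1.35% of all genes, and 1 lower, against 3.32%, and none was called. Hmga2, Lin28a, Lin28b, Igf2bp1 and Trim71, the classic targets of the embryo, were not analysed here. Insr, the insulin receptor, carries the site shown above and had 119, 102, 95.7, 117 and 113 CPM in the controls and 108, 124, 105 and 106 in let-7e, a log2 fold change of 0.00 (SE 0.10, edgeR adjusted p = 0.999). Igf1r, the IGF1 receptor, had 20.4, 22.7, 34.2, 19.1 and 23.2 in the controls and 23.6, 21.9, 23.5 and 20.8 in let-7e, with control 3 the highest (log2 fold change -0.11, SE 0.16, edgeR adjusted p = 0.887). Without control 3 that value was 0.05. Both receptors thus had overlapping values in the 2 groups.

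Irs2 and Col3a1, whose sites are also shown, had the higher values in let-7e already described. Igdcc3, a membrane protein of the immunoglobulin superfamily with 2 sites in a UTR of 538 bases, had 0.276, 0.374, 0.556, 0.492 and 0.391 CPM in the controls and 0.749, 0.734, 0.702 and 0.679 in let-7e, with the groups apart at a level below 1 CPM (log2 fold change 0.75, SE 0.26, edgeR adjusted p = 0.783). Mycn, a transcription factor of growth, had 0.331, 0.795, 0.818, 0.703 and 0.664 in the controls and 0.696, 1.19, 1.11 and 1.63 in let-7e (log2 fold change 0.77, SE 0.33, edgeR adjusted p = 0.783). E2f5, a cell cycle transcription factor with a 7-base match, was the target with lower values and groups apart, at 7.18, 8.05, 13.3, 7.45 and 9.103 in the controls and 6.48, 6.95, 6.11 and 6.99 in let-7e (log2 fold change -0.46, SE 0.20, edgeR adjusted p = 0.783, and -0.28 without control 3). Igf2bp2, an RNA-binding protein that stabilises growth messages, had 7.79, 6.78, 7.296, 5.83 and 8.52 in the controls and 10.01, 11.3, 5.49 and 13.8 in let-7e, with let-7e 5 the lowest library and let-7e 6 the highest. Acvr1c, the activin receptor ALK7 of fat cells, had 176, 147, 119, 154 and 124 in the controls and 189.6, 221, 127 and 149 in let-7e, with groups that overlapped. By site, the 20 tested targets with an 8-base match had a median of 0.03 and 9 below 0, and the 22 with only a 7-base match had -0.11 and 14 below 0. The machinery that makes and loads microRNAs had 12 of 20 genes below 0, near the 59% of all genes, and a median of -0.01. Dicer1, which cuts microRNA precursors, had 42.3, 33.03, 46.6, 42.6 and 37.3 in the controls and 39.4, 40.3, 43.4 and 42.4 in let-7e (log2 fold change 0.02, SE 0.10, edgeR adjusted p = 0.969).

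Across the transcriptome, the median of genes with a let-7 seed match was not below that of genes without one, although it was so in some classes of UTR length. The longest annotated 3 prime UTR of each of 13688 tested genes was searched on the sense strand for CTACCTCA, the 8-base match, and otherwise for CTACCTC or TACCTCA, the 7-base matches, which overlap with it. The 8-base match was found in 496 genes (3.62%), a 7-base match only in 1801 (13.2%) and neither in 11391 (83.2%). The median log2 fold changes were -0.02, -0.04 and -0.05, and over all of these genes -0.04. Interquartile ranges were -0.19 to 0.11, -0.18 to 0.09 and -0.20 to 0.09, so the classes overlapped almost wholly. Genes with a match have longer UTRs (median 2425 bases with the 8-base match and 982 without any), and the median was nearer to 0 in genes with longer UTRs whether they held a match or not. Among the genes with the longest UTRs, in 3 classes of near-equal size by length, the medians were -0.01 for 313 genes with the 8-base match and -0.02 for 3097 genes without a match. There the 1153 genes with only a 7-base match were also at -0.02. Among those with the shortest UTRs the 164 genes with only a 7-base match were lower, at -0.11, while the 42 genes with an 8-base match and the 4357 without any were both at -0.07. In the middle class the medians were -0.03 (141 genes), -0.05 (484 genes) and -0.04 (3937 genes) for the 8-base match, a 7-base match only and no match. These differences were small beside the interquartile ranges, and they were not tested. Without control 3 and control 6 the medians over all lengths were 0.03, 0.01 and -0.01, and among the shortest UTRs -0.07, -0.04 and -0.03.

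**Figure D5:**
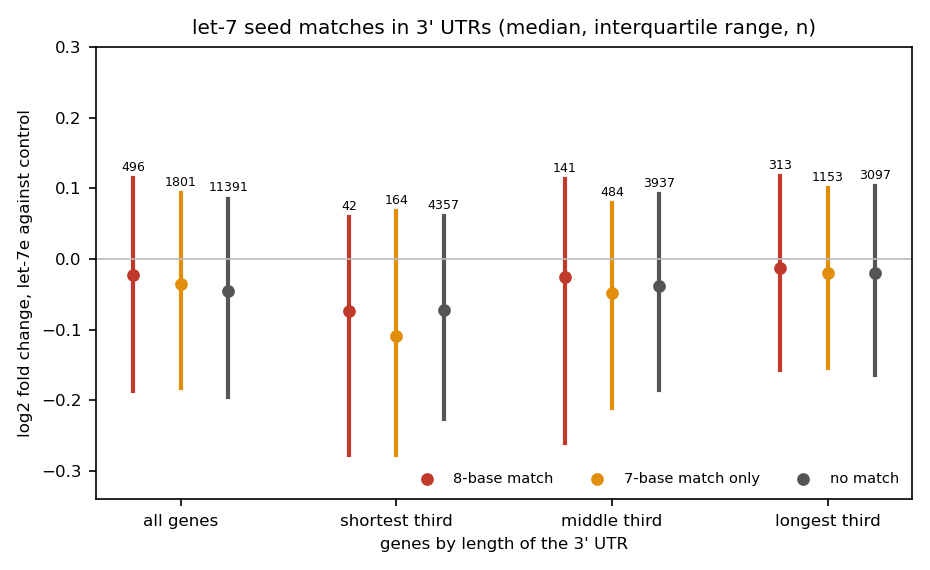
Median (point) and interquartile range (line) of the log2 fold change of let-7e against control, by let-7 seed match and by length of the 3 prime UTR, with the number of genes above each line. Over all genes the medians are -0.02 (8-base match), -0.04 (7-base match only) and -0.05 (no match), and the ranges overlap throughout.

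The let-7d libraries of the same kind of identifier (4, replicates 3 to 6) were used to ask whether let-7e differed from the other microRNA with that seed. edgeR called 0 of 15129 genes (0%) for let-7e against let-7d, the smallest adjusted p was 0.163, and 1315 genes (8.69%) were at an unadjusted p under 0.05. limma-voom called 0, with 1940 at an unadjusted p under 0.05, whereas DESeq2 called 150 of the 11862 genes to which it gave an adjusted p (1.26%), 104 higher and 46 lower in let-7e. Irs2 had 75.05, 84.2, 99.3 and 62.3 CPM in let-7d 3, 4, 5 and 6, all below the let-7e libraries, and its log2 fold change was 0.80 (SE 0.14, edgeR adjusted p = 0.221). DESeq2 gave Irs2 an adjusted p of 0.0002. Kdr had 150.1, 139.5, 158 and 179 in let-7d, also below every let-7e library, and its log2 fold change was 0.55 (SE 0.10, edgeR adjusted p = 0.221, DESeq2 adjusted p = 0.000173). Ctif had 43.5, 59.3, 58.5 and 50.1 in let-7d, with a log2 fold change of 0.98 (SE 0.15, edgeR adjusted p = 0.221, DESeq2 adjusted p = 2.75e-06). For all 3 genes the controls lay between let-7d and let-7e on average, and both comparisons use the same let-7e libraries. Cyp51 had 62.2, 47.8, 47.9 and 65.1 in let-7d, above every let-7e library, with a log2 fold change of -0.60 (SE 0.13, edgeR adjusted p = 0.278, DESeq2 adjusted p = 0.00884). In Axin2 and Grb14, by contrast, let-7d overlapped with let-7e. Axin2 had 22.38, 26.04, 26.19 and 36.09 in let-7d, above every control, at a log2 fold change of -0.325 (SE 0.189). Grb14 had 41.58, 37.56, 38.45 and 38.37, also above every control, at -0.0428 (SE 0.172). Of all genes, 45.5% were higher in let-7e than in let-7d, with a median log2 fold change of -0.02. By list, cholesterol synthesis genes were higher in 0 of 23 (median -0.47), complex I in 0 of 36 (-0.10) and endothelial markers in 17 of 20 (0.23). Other lists were also one-sided. Cytosolic ribosomal proteins were higher in 1 of 77, heat shock genes in 1 of 16, interferon response genes in 2 of 25 and matrix genes in 25 of 35. edgeR called no gene of these lists. Epithelial transcripts were present in let-7d 3 and let-7d 5. Of 15 absorptive and ciliated epithelium markers only 3 were tested, Epcam, Vil1 and Krt7. Their mean log2 CPM was 3.75 in let-7d 3 and 3.47 in let-7d 5, compared with -0.51 to 1.81 in let-7e. The part of epithelial transcripts in the comparison with let-7d was not tested.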

How the data were processed

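RNA sequencing of whole epididymal fat was analysed from the deposited counts, whole numbers of reads for each Ensembl gene. Per the submitters' processing notes the authors used STAR and GRCm38.p6; the version and the counting tool are not given in the sources used here. The columns of 13 libraries with A identifiers were matched to the labels by name, and 4 count columns of other identifiers were not used. A second deposited table was not used. Control replicate 5 is not analysed here. The members, gene lists and tests were chosen with earlier results of these data known.

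Of 16452 genes, 16438 received a symbol from GENCODE M21 or the gene name table. The main test was edgeR 4.0.16 (R 4.3.3, TMM, filterByExpr, quasi-likelihood, two-sided, Benjamini-Hochberg, threshold 0.05) on the 9 libraries, with no covariates; 731 genes with low counts were left out, 15721 were tested and the biological coefficient of variation was 35.9%. DESeq2 1.42.0, which gave no adjusted p to 569 genes, and limma 3.58.1 (voom with quality weights) were alternatives, beside those in the closing section. The fits were tested on simulated data with known fold changes. Levels were computed as TMM-scaled CPM, with a prior count of 2 on the log2 scale. Replicates were compared in pairs: the smallest chi-square per degree of freedom, 22.71 for let-7e 3 and let-7e 4, was far over 1, so no library was counted as a duplicate. The totals of 15324887 to 28523424 counts set the counting precision.

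Genes were named by a rule: the 8 higher and 8 lower genes with the smallest unadjusted p among genes that averaged 1 CPM or more and have an established symbol, 18 fixed genes where measured, and for each list the members with the smallest p. DESeq2 calls and a few let-7 targets were named after their values were seen. Lists have no test of their own: counts, medians and the level per library (the mean log2 CPM of the tested members) are given.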

Additional observations from a re-analysis of the deposited data

Results flagged for a closer look

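In 31 of 308 groups of 4 or 5 libraries, over the genes named and the list levels, 1 library lay far from the others by Dixon's ratio on the log2 scale at the 95% level; chance gives about 1 in 20 groups. Control 3 accounted for 10 of them, let-7e 6 for 5 and control 6 for 4. In control 3 these were transcripts of smooth muscle, of vas deferens or epididymis, and of epithelium. They were Des, a muscle filament, at 1425 CPM, Spink8 at 484.9 CPM, Crisp1 at 2873 CPM, the keratins Krt8, Krt18 and Krt19 at 124, 82.3 and 176.7 CPM, and Gata3 at 120.7 CPM. The list levels were 8.80 for smooth muscle and 10.21 log2 CPM for vas deferens and epididymis, the latter the mean of Spink8 and Crisp1 alone. Kdr, at 109 CPM, was low in the same library. In control 6 they were Tssk6, a testis kinase, at 38.6 CPM, Aif1, which both macrophages and the testis express, at 34.5 CPM, and the spermatid and lymphocyte list levels at 6.73 and 2.11 log2 CPM.

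Control 1 had a high Mrpl22 (18.8 CPM) and a low Mycn (0.331 CPM), and control 2 a high Col3a1 (1269 CPM) and a low Cpa3 (3.04 CPM). Among the let-7e libraries, let-7e 3 had a low Acaca (266.6 CPM) and a low Mcm4 (11.2 CPM). let-7e 4 had a high Insr (124 CPM), a low Cpt1a (89.5 CPM) and a low Tarbp2 (18.6 CPM), a partner of Dicer1. let-7e 5 had a high Elovl6 (84.9 CPM), a high mt-Nd6 (986.8 CPM) and a high Ttc25 (1.65 CPM). let-7e 6 had a high Scd1 (57630 CPM) and adipocyte level (10.71 log2 CPM), a low Atp5g1 (22.2 CPM) and Rpl19 (94.0 CPM), and 0 counts of mt-Nd3 (0 CPM).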

How the results depend on the processing

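Under DESeq2 size factors, no count filter, a mean of at least 5 CPM, limma-voom, all 13 libraries, a threshold of 0.1, or with any 1 library left out, 0 genes were called between let-7e and control, as in the fit reported; the DESeq2 Wald test called 4, and 15 without control 3 and control 6, a combination chosen after seeing the data. The count at an unadjusted p under 0.05, 734 as reported, ran from 335 (without let-7e 6) to 1515 (without control 2) with 1 library left out, with 364 without let-7e 3 and 447 without let-7e 5. It was 1119 with all 13 libraries and 488 at a mean of at least 5 CPM. For let-7e against let-7d the count of calls was 0 to 1 with 1 library left out, the 1 being Elovl6 without let-7e 5 (log2 fold change -1.31, edgeR adjusted p = 0.0221), and 150 under DESeq2. The causes were not tested. The order of the seed-match medians over all UTR lengths was the same with the shortest annotated UTR and without control 3 and control 6. When that shortest annotated UTR was used and genes were split by its length, however, in the class with the shortest UTRs the 12 genes with an 8-base match were at -0.25 and the 65 with only a 7-base match at -0.10, against -0.07 without a match.

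Same-numbered libraries did not deviate together: the correlations of their deviations were 0.0973, -0.145 and -0.129 for the 3 shared numbers. With the replicate number as a block, edgeR called 0 genes in either comparison, with 454 at an unadjusted p under 0.05 for let-7e against control, and Dicer1 turned to -0.065.

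Leaving aside the DESeq2 and limma-voom fits without control 3 and control 6, 37 pairs of named gene and setting changed sign. The threshold was passed in 4 pairs, all under DESeq2, and 2051 pairs did neither. In edgeR without control 3 and control 6, the genes that changed sign were Pparg (-0.088), Cebpa (-0.16), Insr (-0.039), Igf1r (0.10), Cnn1 (0.098), Des (0.13), Aif1 (0.45), Spink8 (1.19), Crisp1 (3.69), Tssk6 (0.14), Smcp (1.2951) and Oaz3 (0.79). Under limma-voom they were Adipoq (-0.025), Cebpa (-0.16), Insr (-0.061), Igf1r (0.073), Cnn1 (0.23), Aif1 (0.33), Crisp1 (1.08) and Oaz3 (0.27). Insr was also -0.0035 at a mean of at least 5 CPM. With 1 library left out, the values ran from -0.021 to 0.20 for Pparg, -0.079 to 0.16 for Cebpa, -0.37 to 0.007 for mt-Co1, -0.046 to 0.072 for Dicer1, -0.048 to 0.0399 for Insr, -0.17 to 0.051 for Igf1r, -6.63 to 0.39 for Cnn1, -3.34 to 0.16 for Des, -1.40 to 0.44 for Aif1, -5.30 to 0.065 for Oaz3 and -4.39 to 0.0299 for Krt8, so that each of these changed sign in at least 1 such fit. Leaving out control 3 turned the median of the smooth muscle list from -1.81 to 0.23, and leaving out control 6 that of the spermatid list from -4.16 to 0.14. The block fit left the let-7 target median at 0.02, and without control 3 and control 6 it was 0.09.

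The biological coefficient of variation of 35.9% is 1 value for all genes, and the precision of single genes varied around it. The SE of the log2 fold change was 0.19 for Tnc, with controls of 8.56 to 16.9 CPM, and 0.67 for Fasn, with controls of 2942 to 32280 CPM.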

Other observations

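Some gene groups outside the comparisons above had these values in let-7e against control. Over all genes tested, 59% had a log2 fold change below 0, with a median of -0.04. Of 14 thermogenic genes tested, 10 had a log2 fold change below 0 (median -0.27), and the median was 0.06 without control 3 and control 6. Ucp1, the uncoupling protein of brown fat, was not analysed here. Antioxidant genes were below 0 in 17 of 26 (median -0.08) and citric acid cycle genes in 20 of 22 (median -0.10, or 0.01 without control 1). Mast cell and granulocyte genes were below 0 in 7 of 9 (median -0.42), with let-7e 5 the lowest library at -1.46 on the log2 scale relative to the control mean; the median was -0.18 without let-7e 5 and -0.89 without let-7e 4. Heat shock genes were below 0 in 10 of 16 (median -0.06), near the share over all genes. Immediate early genes were above 0 in 13 of 20 (median 0.04), against 41% of all genes. Both groups change with the handling of tissue. Red cell genes were highest in control 1, at 1.25 relative to the control mean, the library that was also highest in fat synthesis and the respiratory chain; the part of blood in those values was not tested. None of these lists held a gene called by edgeR.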
